A study of Mus musculus with 6 samples.

Results

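Cytosolic ribosomal protein genes were followed in tables of DNA methylation differences from mouse pluripotent and germline stem cell lines. The group was taken by symbol from a GRCm38.p6 gene table: protein-coding genes whose symbol is Rpl or Rps followed by a number, with Rplp0, Rplp1, Rplp2 and Rpsa, without the S6 kinase genes (Rps6k) and without symbols that end in l. It held 85 of the 21900 protein-coding genes. The letters of that rule also let in Rps19bp1, which encodes a binding partner of the ribosomal protein Rps19, and the paralogues Rpl22l1 and Rpl7l1, and 5 genes with names of retrocopies or pseudogenes (Rpl31-ps12, Rpl34-ps1, Rpl37rt, Rps23rg1 and Rps27rt), so that 77 were left without them. For each gene the listed positions were read over its span and 2000 bp on each side, here called its window.

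The study profiled cultured lines of the OG2 mouse strain by reduced representation bisulfite sequencing, an assay that reads CpG-rich fragments of the genome after bisulfite conversion. Its 6 samples were 1 line of germline stem cells (GSC), 2 lines of induced pluripotent stem cells made from GSC (iPSC 1 and iPSC 2), 2 lines of germline-derived pluripotent stem cells (gPSC 1 and gPSC 2) and 1 line of embryonic stem cells (ESC). OG2 mice are known for a green fluorescent protein reporter under Pou5f1 regulatory sequence. The labels used here give no treatment, and GSC and ESC are 1 line each, so nothing found in them has a replicate. For GSC, iPSC and gPSC, 2 tables per library list single positions, those more methylated than in a reference library (hyper) and those less methylated (hypo). The reference is not named in the tables and was taken to be the ESC line, for which no table is used here, so all 5 libraries are set against the same 1 library. A listed value is the difference in methylation in percent points, and every listed position had an absolute difference of at least 25 points and a q of at most 0.01. The authors' p and q compare 1 library with 1 library. Coverage and methylation levels are not in the tables, so the depth is unknown, and a position without a listing may be unchanged or unmeasured.

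The ribosome is built from a large and a small subunit, and most genes of this group encode a protein of one of them: names with Rpl mark the large subunit, names with Rps the small one, and Rplp0, Rplp1 and Rplp2 to the stalk on which translation factors dock. The genes are transcribed in nearly every cell, and most start inside a CpG island, a stretch rich in CpG sites that is usually free of methylation in cells that use the gene. Methylated cytosines sit mainly in CpG sites, which read the same on both strands, so that each site holds a cytosine on the strand of the gene (sense) and one on the opposite strand (template), a single base apart. Many ribosomal protein genes have near-identical processed copies elsewhere in the genome, and whether reads of such copies reached any listing was not tested.

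The promoter windows of these genes show the CpG density behind the listings. RefSeq promoter sequences of GRCm38.p6, from 250 bases before to 50 bases after a start, were matched by symbol for 64 of the 85 genes and gave 74 windows of 300 bases. A window of the group held a median of 21 CpG sites (4 to 39), against 13 over all 21263 promoters of protein-coding genes. The ratio of observed to expected CpG was 0.869 in the group and 0.567 over all promoters, as medians. The letters CCGG, the cut site of the enzyme commonly used for this assay, were found in 65 windows (87.8%), against 62.2% of all promoters. CCGGAA, searched on both strands like every motif here and overlapping CCGG, was found in 35 windows (47.3%), against 18.7% of all promoters. ATGGCG was found in 22 windows (29.7%), against 10.9%, and TATAAA in 8 (10.8%), against 12.6%. A motif match describes the letters only.

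Listed positions fell in the promoter windows of 20 genes. There were 221 listings there over the 5 libraries, a position in several windows of its gene being counted once, and 221 of them lay on a cytosine of a CpG site. The 4 windows printed next show the forms in which the listings came: both strands of the same sites in Rps10 and Rps6, and mostly 1 strand in Rpl35 and Rpl23. Each runs 5′ to 3′ along the gene's strand. Capitals mark bases listed in at least 1 library; a capital C is a cytosine of the sense strand and a capital G stands for the cytosine opposite it on the template strand. All 4 genes lie on the minus strand: the Rps10 window at chr17:27635195-27635494, the Rps6 window at chr4:86857318-86857617, the Rpl35 window at chr2:39005082-39005381 and the Rpl23 window at chr11:97782390-97782689.
Rps10: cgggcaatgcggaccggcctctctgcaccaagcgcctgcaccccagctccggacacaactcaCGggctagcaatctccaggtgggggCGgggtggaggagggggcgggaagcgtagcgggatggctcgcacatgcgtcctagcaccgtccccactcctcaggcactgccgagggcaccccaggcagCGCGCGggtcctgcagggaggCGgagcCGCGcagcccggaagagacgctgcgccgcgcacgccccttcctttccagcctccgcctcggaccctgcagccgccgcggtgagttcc
Rps6: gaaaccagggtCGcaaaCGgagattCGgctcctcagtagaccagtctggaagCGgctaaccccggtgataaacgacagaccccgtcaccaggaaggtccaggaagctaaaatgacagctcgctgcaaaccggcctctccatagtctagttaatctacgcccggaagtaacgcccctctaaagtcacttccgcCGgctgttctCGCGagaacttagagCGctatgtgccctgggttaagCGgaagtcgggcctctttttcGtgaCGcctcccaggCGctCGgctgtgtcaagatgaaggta
Rpl35: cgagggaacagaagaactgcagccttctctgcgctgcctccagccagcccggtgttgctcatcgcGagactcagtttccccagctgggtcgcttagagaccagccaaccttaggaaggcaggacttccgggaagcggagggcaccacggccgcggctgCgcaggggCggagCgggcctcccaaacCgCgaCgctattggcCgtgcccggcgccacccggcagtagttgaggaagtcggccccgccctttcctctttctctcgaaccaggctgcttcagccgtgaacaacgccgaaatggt
Rpl23: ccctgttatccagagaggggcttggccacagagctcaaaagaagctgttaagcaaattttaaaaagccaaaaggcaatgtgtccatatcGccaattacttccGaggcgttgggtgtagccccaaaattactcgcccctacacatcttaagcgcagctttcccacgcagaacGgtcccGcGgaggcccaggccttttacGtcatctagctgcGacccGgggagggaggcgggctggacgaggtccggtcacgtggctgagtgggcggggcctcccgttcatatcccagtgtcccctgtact

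Around the group as a whole, hyper and hypo listings were close to balanced in every library, while over the genome hyper listings outnumbered hypo listings several times. The windows held 253 hyper and 215 hypo positions in GSC 1. In iPSC 1 there were 73 hyper and 100 hypo positions, and in iPSC 2 102 hyper and 130 hypo. In gPSC 1 there were 124 hyper and 131 hypo positions, and in gPSC 2 123 hyper and 114 hypo. Over the genome, the tables listed 118235 to 211853 hyper and 20470 to 43836 hypo positions per library. Near balance was not particular to the group: within 500 bp of the start, 43.9% to 49.7% of listings at all protein-coding genes were hyper, by library.

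The hyper count of the group was higher in GSC than in any pluripotent line, but GSC has no replicate and was not tested. That order held for the whole lists too: GSC 1 had 211853 hyper positions over the genome, against 118235 to 139170 per pluripotent line. Between the reprogrammed kinds, iPSC lines averaged 87.5 ± 20.5 hyper positions and gPSC lines 123.5 ± 0.707 (SD, n = 2 lines each). The difference of -36 had p = 0.333 in a two-sided exact permutation test, the smallest p that 2 lines against 2 allow, so the design cannot reach 0.05. Hypo positions averaged 115 ± 21.2 in iPSC lines and 122.5 ± 12 in gPSC lines (SD, n = 2 each), a difference of -7.5 that was smaller than the spread between iPSC lines (exact permutation p = 0.667). Both comparisons use the same reference library. The lower hyper count of iPSC lines was not particular to the group either. Genome-wide hyper listings numbered 118235 for iPSC 1 and 131566 for iPSC 2, both below gPSC 1 with 135001 and gPSC 2 with 139170.

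Most genes of the group had something listed, and a few held much of it. Of the 85 genes, 11 (12.9%) had no listed position in any library, against 21.2% of all protein-coding genes: Rpl27a, Rpl31-ps12, Rpl34-ps1, Rpl36a, Rpl37a, Rps13, Rps15a, Rps16, Rps27rt, Rps28 and Rpsa. The genes are short, with a median length of 3175 bp against 17146 bp over all protein-coding genes, so counts per gene are not on equal terms. Over the 5 libraries the 74 others had 1388 listings, of which 355 (25.6%) belonged to the 5 genes with the most, Rps10, Rpl26, Rpl7, Rps6 and Rpl18. A window of the group held another protein-coding gene for 44 of the 85, and 277 of 1365 distinct listings (20.3%) lay inside another protein-coding gene.

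By share of genes, the group had fewer genes with a hyper listing than the background in the pluripotent lines and more with a hypo listing in every library. Its windows are shorter, with a median of 7.17 kb against 21.1 kb over all protein-coding genes, and per kb of window the hyper direction is the other way round. Hyper positions per kb were 0.394 at the group's genes against 0.124 at all genes in GSC 1, 0.111 against 0.0623 in iPSC 1, 0.157 against 0.0721 in iPSC 2, 0.19 against 0.0744 in gPSC 1 and 0.189 against 0.0759 in gPSC 2. Hypo positions per kb were 0.341 against 0.0398 in GSC 1, 0.154 against 0.0225 in iPSC 1, 0.201 against 0.03 in iPSC 2, 0.201 against 0.0265 in gPSC 1 and 0.175 against 0.0185 in gPSC 2. Over the whole window both densities were thus higher at the group in every library, with the wider gap for hypo positions. A hypo excess was not particular to the group. In GSC 1, hypo positions per kb were 0.11 at mitochondrial ribosomal protein genes, 0.0986 at ribosome assembly genes and 0.153 at translation factor genes. Hyper positions per kb there were 0.194, 0.204 and 0.304. All these values lay above all genes and below the cytosolic group. The hypo density of each of these gene groups exceeded that of all genes in every library. The hyper excess of the cytosolic group did not hold in every part of the window, by the 64 genes with a known strand. In the gene span beyond 500 bp from the start, hyper positions per kb were 0.0716 against 0.0619 in iPSC 2, 0.0627 against 0.062 in gPSC 1 and 0.0671 against 0.0666 in gPSC 2. There GSC 1 had 0.224 against 0.108 and iPSC 1 0.0895 against 0.0538. In the downstream flank iPSC 1 had 0.0235 against 0.0661. At least 1 hyper position was listed for 63 of 85 genes (74.1%, against a background of 69.0% of all protein-coding genes) in GSC 1, 26 (30.6%, against 54.3%) in iPSC 1 and 40 (47.1%, against 62.7%) in iPSC 2, and 49 (57.6%, against 62.5%) in gPSC 1 and 40 (47.1%, against 60.0%) in gPSC 2. At least 1 hypo position was listed for 47 genes (55.3%, against 42.3%) in GSC 1, 33 (38.8%, against 34.0%) in iPSC 1 and 38 (44.7%, against 43.0%) in iPSC 2, and 45 (52.9%, against 38.0%) in gPSC 1 and 27 (31.8%, against 27.7%) in gPSC 2. These shares describe the lists and carry no test, and those of iPSC 1, iPSC 2 and gPSC 2 for hypo listings lie near the background.

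A gene was called hyper or hypo in a library when 3 or more positions in its window were listed in that direction and these made up 80% or more of its listings there. A call for iPSC or for gPSC needed the same call in each of the 2 lines. By that rule 10 of 85 genes were called hyper in GSC (11.8%), against a background of 31.8% of all protein-coding genes. In both iPSC lines 0 genes were called hyper, against 13.3%, and in both gPSC lines 3 (3.53%), against 18.1%. Hypo calls went to 3 genes in GSC (3.53%, against 2.36%), to 1 in both iPSC lines (1.18%, against 0.205%) and to 1 in both gPSC lines (1.18%, against 0.187%). Single lines called 1 gene hyper in iPSC 1 (background 21.2%) and 2 in iPSC 2 (21.8%), and 4 in gPSC 1 (24.1%) and 3 in gPSC 2 (29.2%). They called 2 genes hypo in iPSC 1 (background 1.60%) and 4 in iPSC 2 (1.87%), and 5 in gPSC 1 (1.28%) and 2 in gPSC 2 (1.11%). The hypo shares rest on 1 to 5 genes each. A call counts positions in windows of unequal length and asks for 1 direction. Fewer hyper calls at the group thus do not mean fewer hyper positions per kb, which were more frequent there over the whole window.

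**Figure D1:**
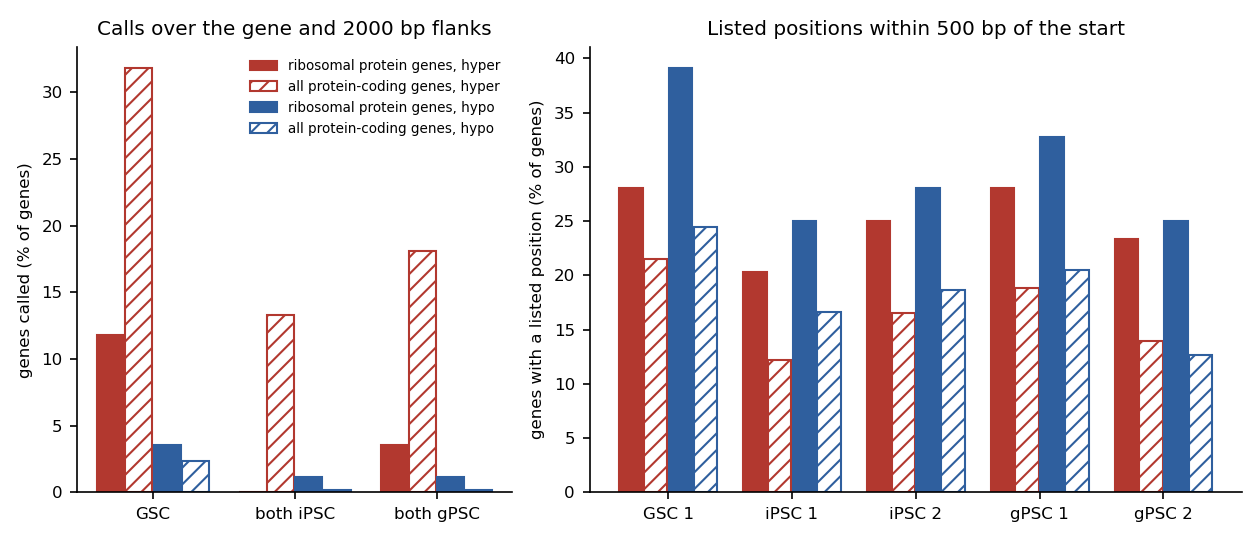
Left, share of genes called hyper (red) or hypo (blue) by group, for the 85 ribosomal protein genes (filled) and all 21900 protein-coding genes (hatched). Right, share of genes with at least 1 listed position within 500 bp of the start in each library, for 64 ribosomal protein genes and 17492 protein-coding genes with a known strand. Per gene, hyper calls are fewer in the group than in the background on the left, 11.8% against 31.8% in GSC, although hyper positions per kb of window are more frequent, 0.394 against 0.124; near the start the group has more genes with listings of either direction in each library.

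Near their starts, taken as the upstream edge of the gene span, the ribosomal protein genes carried more listings than other genes, in both directions. Within 500 bp of the start, hyper positions were listed for 18 of the 64 genes with a known strand in GSC 1 (28.1%, against 21.5% of 17492 genes), 13 in iPSC 1 (20.3%, against 12.2%) and 16 in iPSC 2 (25%, against 16.5%), and 18 in gPSC 1 (28.1%, against 18.8%) and 15 in gPSC 2 (23.4%, against 14.0%). Hypo positions were listed there for 25 genes in GSC 1 (39.1%, against 24.5%), 16 in iPSC 1 (25%, against 16.6%) and 18 in iPSC 2 (28.1%, against 18.7%), and 21 in gPSC 1 (32.8%, against 20.5%) and 16 in gPSC 2 (25%, against 12.7%). The windows near starts are of equal length, so gene length does not enter these shares, but the CpG and CCGG content described above differs between the group and all genes, and its part in them was not tested.

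The share of hyper positions among the listings varied with the place. In GSC 1, hyper positions made up 36.4% of the listings within 500 bp of a ribosomal protein gene's start, against 43.9% at all genes. Near the start the share was 42.1% against 45.3% in iPSC 1 and 34.6% against 44.5% in iPSC 2. In gPSC 1 it was 41.4% against 48.4%, and in gPSC 2 43.5% against 49.7%. In the rest of the gene span hyper positions made up 65.8% of the group's listings in GSC 1, against 85.5% at all genes. In the gene span that share was 45.5% against 82.0% in iPSC 1, 51.6% against 78.2% in iPSC 2, 53.8% against 82.5% in gPSC 1 and 75.0% against 88.2% in gPSC 2, from 20 to 44 listings of the group in each. Upstream, more than 500 bp before the start, the share was 81.8% against 70.2% in GSC 1, 40% against 66.5% in iPSC 1, 64.3% against 64.3% in iPSC 2, 81.2% against 69.5% in gPSC 1 and 94.1% against 77.1% in gPSC 2, from 10 to 44 listings of the group. The group was thus less hyper than all genes in the gene span of every library, and more hyper upstream in GSC 1 and both gPSC lines. In the downstream flank it was less hyper than all genes in each library except iPSC 2 (76.9% against 69.8%, from 13 listings). The authors' own annotation put 59.3% of the group's listings in a promoter, against 28.1% of listings around all protein-coding genes.

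Among large subunit genes, Rpl26 was the one gene called hypo in GSC, in both iPSC lines and in both gPSC lines. Rpl26, whose protein sits near the exit of the tunnel through which the new chain leaves the ribosome, lies at chr11:68901566-68904534 on the plus strand. Its window had 16 hypo and 3 hyper positions in GSC 1, 14 hypo and 1 hyper in iPSC 1 and 13 hypo and 0 hyper in iPSC 2, and 14 hypo and 2 hyper in gPSC 1 and 13 hypo and 0 hyper in gPSC 2. In each library 11 of the hypo positions formed a stretch of 75 bp from 68 to 142 bp after the start, annotated by the authors as promoter, intron and, in part, exon.

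The size of the Rpl26 difference was nearly the same in all 5 libraries. Over the 11 positions the differences ran from -64.0 to -49.6 points with a median of -50.4 in GSC 1. In iPSC 1 they ran from -58.8 to -44.3 points (median -45.1), and in iPSC 2 from -64.0 to -49.6 (median -50.4). In gPSC 1 they ran from -64.0 to -44.7 (median -50.4), and in gPSC 2 from -64.0 to -49.6 (median -50.4). GSC 1, iPSC 2 and gPSC 2 had the same difference at 9 of the 11 positions, and iPSC 1 was closest to 0 at all 11. All 5 were measured against the same library, so they are not 5 independent readings of the stretch. The largest q in the stretch was 0.000522, in iPSC 1. Farther in, from 217 to 251 bp after the start, GSC 1 and gPSC 1 listed pairs of neighbouring positions with opposite signs.

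**Figure D2:**
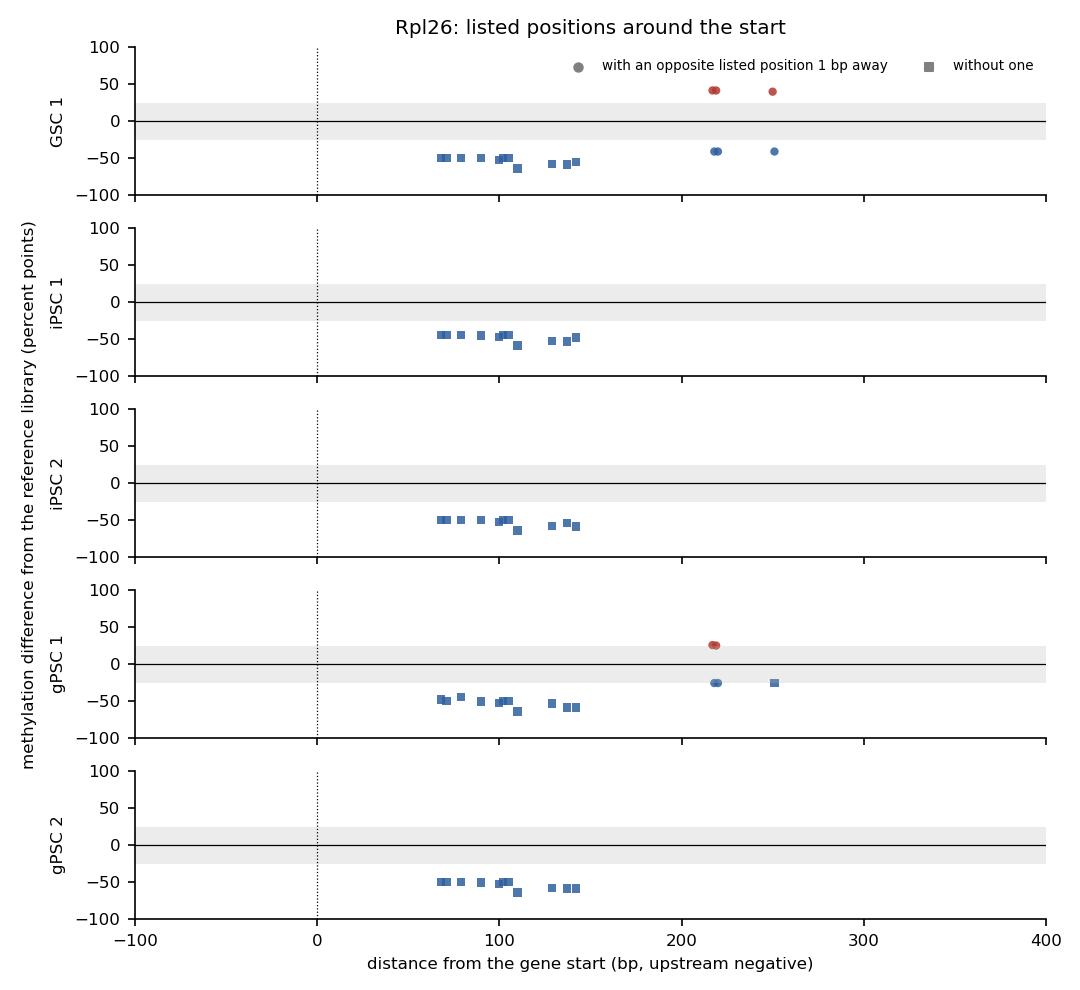
Methylation difference from the reference library in percent points (vertical) against distance from the Rpl26 start in bp (horizontal), 1 panel per library, from GSC 1 at the top to gPSC 2. Each point is 1 listed position, red for hyper and blue for hypo, round where an opposite listed position is 1 bp away; the grey band marks differences under 25 points, which are never listed. The same 11 hypo positions stand between 68 and 142 bp in each panel.

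Rpl11, whose protein is known in human and mouse cells to bind and inhibit Mdm2, was called hyper in GSC and in both gPSC lines, from different places. It lies at chr4:136049354-136053393 on the minus strand. In gPSC 1, 9 hyper positions between 173 and 262 bp after the start had differences of 46.1 to 54.9 points, with 1 hypo position of -60.3 among them. In gPSC 2, 8 hyper positions there had 27.3 to 33.3 points. In iPSC 1, 7 hyper positions there had 30.8 points each, beside 1 hypo position of -64.3. In GSC 1 that stretch held a single hypo position of -57.1, and the 4 hyper positions behind its call lay from 5117 to 5249 bp after the start, in the flank behind the gene, with 25.9 to 90.9 points. The tenth hyper position of gPSC 1 lay there too, with 28.9 points. In iPSC 2, Rpl11 had no listing.

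Rpl18 and Rpl37rt made up the rest of the calls in both gPSC lines. Rpl18 had 22 hyper and 3 hypo positions in GSC 1, 3 and 2 in iPSC 1 and 7 and 3 in iPSC 2, and 8 and 1 in gPSC 1 and 9 and 2 in gPSC 2. Its neighbours Sphk2, which encodes a sphingosine kinase, and Fam83e reach into its window, and 16 of the 25 listings in GSC 1, 9 of 9 in gPSC 1 and 9 of 11 in gPSC 2 lay inside them. No Rpl18 listing lay within 500 bp of the upstream edge of its gene span. Its RefSeq promoter window, at chr7:45717821-45718120, lies inside the span, shortly before a stretch listed in GSC 1 at 45718277-45718381. Rpl37rt, whose name marks it as a retrotransposed copy of Rpl37, had 5 hyper and 0 hypo positions in gPSC 1 (44.1 to 76.4 points) and 7 and 0 in gPSC 2 (26.9 to 61.4 points). It had 5 and 2 in GSC 1, 2 and 2 in iPSC 1 and 7 and 4 in iPSC 2. Over the 5 libraries, 18 of its 34 listings lay inside the neighbouring gene Acads.

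The other hyper calls in GSC at large subunit genes rested on few positions. Rpl3, whose protein reaches into the peptidyl transferase centre, had 5 hyper positions of 62.5 to 93.8 points in GSC 1, none in iPSC 1 or iPSC 2, 2 in gPSC 1 and 1 in gPSC 2. Rpl8, a neighbour of the same centre, had 4 hyper and 1 hypo positions in GSC 1, and 1 of each in gPSC 1. Rpl29 had 6 hyper and 1 hypo positions in GSC 1, of which 3 lay inside the neighbouring gene Acy1, an aminoacylase. Rpl35a, mutated in some patients with Diamond-Blackfan anaemia, had 3 hyper positions of 88.9 to 100 points in GSC 1 and 2 of 27.5 and 56.0 points in iPSC 2. Of the 10 genes called hyper in GSC, 5 have a known strand. Only Rps4x among these had hyper positions within 500 bp of the upstream edge of its gene span.

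Hypo stretches near the start that appeared in a single library were a second form among large subunit genes. Rpl35, another protein of the tunnel exit, had 15 hypo positions from 90 to 210 bp after its start in gPSC 1, of -81.8 to -78.6 points. In GSC 1 it had 8 hypo positions from -185 to -50 bp relative to its start, of -66.7 to -39.7 points, and neither stretch was listed in any other library. In the sequence printed above, 7 of these 8 are capital C, on the sense strand, and 1 is a capital G. Rpl23 had 8 hypo positions in iPSC 2 from -161 to -34 bp relative to its start, of -77.8 to -71.3 points, and 8 of 8 were capital G, on the template strand. There iPSC 1 had 1 hypo position of -77.1 points, and GSC 1, gPSC 1 and gPSC 2 had 0.

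Rpl38 and Rpl12 also had hypo stretches, at other distances. Rpl38, required in the mouse for the translation of Hox messages, was called hypo in GSC, with 11 hypo and 2 hyper positions. Of the hypo positions, 7 lay between 1023 and 1058 bp after the edge of the gene span, with -87.5 to -59.6 points. They lie at chr11:114668841-114668876, closer to the RefSeq promoter window of Rpl38 at 114668330-114668629, which is inside the span. Rpl38 had 0 listings in iPSC 1, iPSC 2 and gPSC 2 and 1 in gPSC 1. Rpl12, at the base of the stalk, had 6 hypo positions of -71.1 points each from 115 to 145 bp after the start in GSC 1 and the same 6 at -71.1 points each in gPSC 2, and 0 there in iPSC 1, iPSC 2 and gPSC 1. In GSC 1 these 6 lay in a stretch of 99 bp with 10 hypo positions and 3 hyper positions of 58.3 points each. GSC 1 also had 7 hyper positions from -2000 to -1835 bp relative to the Rpl12 start. In iPSC 2, Rpl12 had 6 hyper and 6 hypo positions from 278 to 304 bp after the start. Of the 46 Rpl12 listings, 14 lay inside another gene, with Lrsam1 in its window. In gPSC 1, Rpl14, a large subunit protein, had 6 hypo positions of -93.3 to -84.4 points from 204 to 280 bp after the start.

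Other large subunit genes carried many listings without a call in GSC or in both lines of a kind. Rpl7 had 8 hyper and 7 hypo positions in GSC 1, 4 and 5 in iPSC 1 and 5 and 10 in iPSC 2, and 7 and 2 in gPSC 1 and 13 and 15 in gPSC 2. Its 28 positions in gPSC 2 lay within 116 bp and were mirrored, with medians of 29.2 and -29.2 points. At another place 6 hyper positions had 67.4 points each in GSC 1 and 58.9 points each in gPSC 1, and the other 3 libraries had none.

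Rpl13 had 8 hyper and 9 hypo positions from 397 to 506 bp after its start in GSC 1 (medians 41.9 and -42.4 points), and 6 and 8 in iPSC 1 (26.2 and -26.1 points). There iPSC 2 had 1 hypo, gPSC 1 had 1 hyper and gPSC 2 had 0 positions. Rpl19, which forms a bridge between the subunits, had 11 hyper and 11 hypo positions in iPSC 1 from 587 to 712 bp inside its gene span. Their medians were 34.6 and -34.6 points, and every other library had at most 1 position there. The stretch, at chr11:98022590-98022715, lies upstream of both RefSeq promoter windows of Rpl19, which begin at 98026460 and 98026674. Of the 36 Rpl19 listings, 27 lay inside another gene, Cacnb1. Rpl24, the gene of the mouse mutation Belly spot and tail, had 5 hyper and 6 hypo positions from 215 to 294 bp after its start in iPSC 1 and 5 and 6 in gPSC 1, 1 and 1 in GSC 1, 1 and 0 in iPSC 2 and none in gPSC 2. Rpl15 had 6 hypo positions of -67.2 points each in a stretch of 37 bp that ends 137 bp after its start in gPSC 2 and 4 of -62.2 points each in GSC 1, and none in iPSC 1, iPSC 2 and gPSC 1. The 82 bp that hold this stretch were not hypo throughout. There gPSC 1 had 4 hyper positions (median 43.8 points) and 1 hypo, GSC 1 had 4 hyper and 5 hypo, and each iPSC line had 1 hypo. Of the 35 Rpl15 listings, 11 lay inside another gene, with Nkiras1 in its window. Rpl10a had 4 hyper and 4 hypo positions in gPSC 2 and 3 to 6 listings in each other library.

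**Figure D3:**
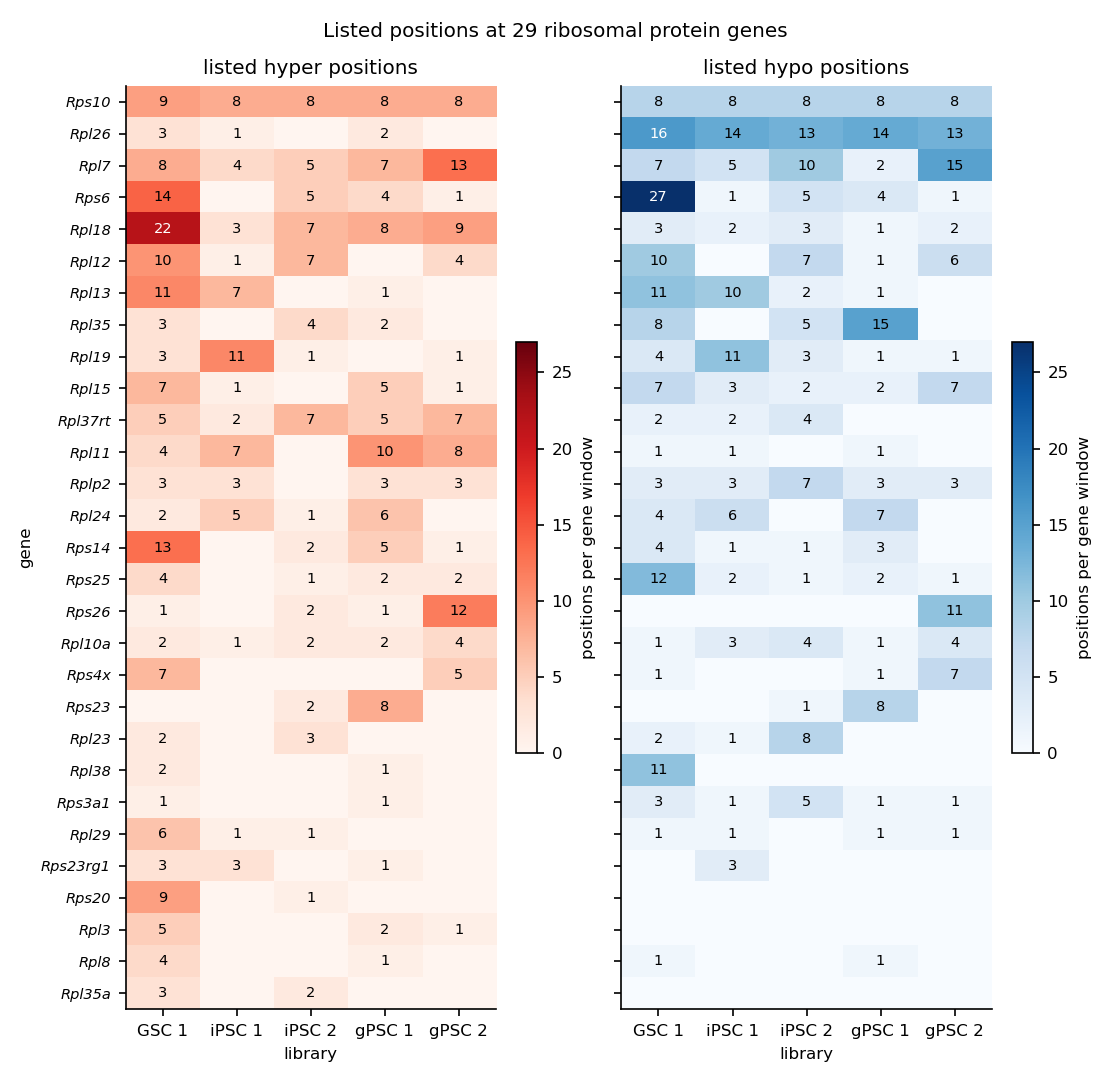
Number of listed hyper (left, red) and hypo (right, blue) positions in the windows of 29 ribosomal protein genes (vertical), in the 5 libraries (horizontal); empty cells are 0. Rps10 has 8 hypo positions and 8 or 9 hyper positions in each library, Rpl26 has 13 to 16 hypo positions, and Rps6 has 27 hypo positions in GSC 1 and 1 to 5 in the other libraries.

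Among small subunit genes, Rps10 stood out by a pattern that was the same in all 5 libraries. Rps10, whose protein lies near the path of the messenger RNA, is at chr17:27630415-27635244 on the minus strand. In every library 8 CpG sites from -188 to -34 bp relative to its start were listed on both strands, the sense cytosine as hyper and the template cytosine as hypo. The sense cytosines had median differences of 30.8 points in GSC 1, 43.3 in iPSC 1 and 39.5 in iPSC 2, and 38.2 in gPSC 1 and 48.2 in gPSC 2. The template cytosines of the same sites had -30.8 points in GSC 1, -43.3 in iPSC 1 and -39.5 in iPSC 2, and -37.9 in gPSC 1 and -48.2 in gPSC 2. The capitals CG in the printed Rps10 sequence are these sites. GSC 1 had 1 more hyper position, of 100 points, in the flank behind the gene.

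The pairs at Rps10 cancelled closely. The sum of the differences of a site, sense plus template, had a median size of 0.265 points in GSC 1, 0 in iPSC 1 and 0.353 in iPSC 2, and 0.463 in gPSC 1 and 0.12 in gPSC 2, and the largest was 5.43. As all 5 libraries share the reference, the strand that was higher cannot be told apart from a property of that library.

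**Figure D4:**
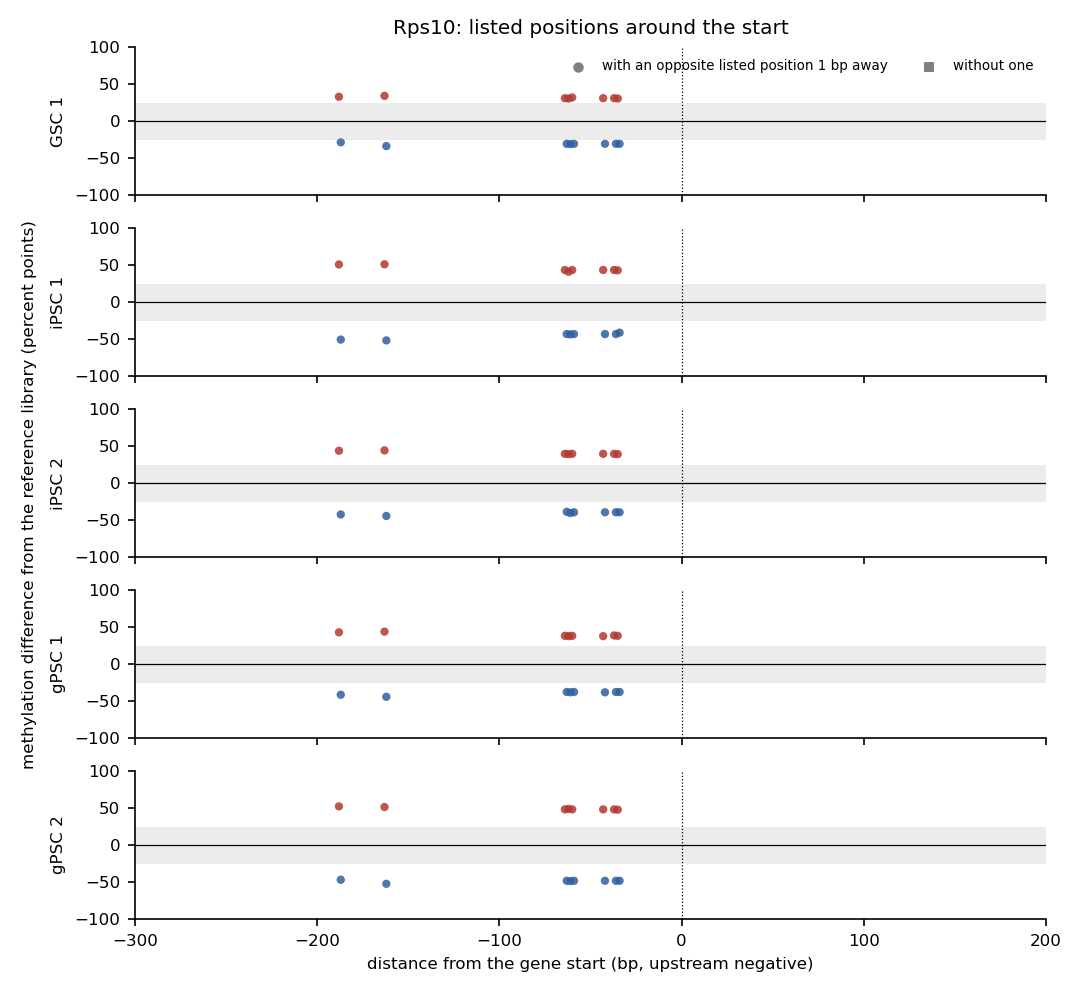
Methylation difference from the reference library in percent points (vertical) against distance from the Rps10 start in bp (horizontal), 1 panel per library, from GSC 1 at the top to gPSC 2. Each point is 1 listed position, red for hyper and blue for hypo, all of them round because an opposite listed position is 1 bp away; the grey band marks differences under 25 points. The 8 hyper and 8 hypo positions of each panel mirror each other around 0.

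Rps6, the small subunit protein phosphorylated by the S6 kinases, had the most hypo positions of any member in 1 library. It had 14 hyper and 27 hypo positions in GSC 1, 0 and 1 in iPSC 1 and 5 and 5 in iPSC 2, and 4 and 4 in gPSC 1 and 1 and 1 in gPSC 2. In GSC 1, 11 hypo positions of -67.5 to -45.2 points ran from 272 to 356 bp after the start, where no other library had a listing. From -58 to 53 bp relative to the start, GSC 1 had 9 hyper positions (28.2 to 42.2 points) and 10 hypo positions (-42.2 to -31.3 points), 18 of the 19 with an opposite neighbour 1 bp away. Unlike at Rps10, in GSC 1 the sense strand was the higher one at 7 CpG sites of the Rps6 promoter window and the template strand at 5.

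Rps20, Rps4x and Rps23rg1, called hyper in GSC, had listings of mainly 1 direction there. Rps20 had 9 hyper positions of 55.6 points each within 41 bp in GSC 1, 1 of 94.1 points in iPSC 2 and none in the others. Rps4x, the X-linked gene of its protein, had 7 hyper and 1 hypo positions in GSC 1, 0 in iPSC 1 and iPSC 2, 1 hypo position in gPSC 1, and 5 hyper and 7 hypo positions in gPSC 2. Rps23rg1, named as a retrogene of Rps23, had 3 hyper positions of 33.9 to 100 points in GSC 1, 3 hyper and 3 hypo positions in iPSC 1 and 1 hyper position in gPSC 1.

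Several small subunit genes had mirrored stretches or stretches of 1 direction in some libraries. Rps7 had 8 hyper and 7 hypo positions from 442 to 553 bp after its start in GSC 1, 4 and 5 in iPSC 1 and 0 and 1 in iPSC 2, and 1 and 1 in gPSC 1 and 4 and 5 in gPSC 2. Rps23, a protein of the decoding centre, had 8 hyper and 8 hypo positions in gPSC 1, from 88 to 177 bp after the start, 2 and 1 in iPSC 2, and 0 in GSC 1, iPSC 1 and gPSC 2. Rps26 had 12 hyper and 11 hypo positions in gPSC 2, and 1 or 2 hyper positions and 0 hypo positions in GSC 1, iPSC 2 and gPSC 1. Rps19, mutated in some patients with Diamond-Blackfan anaemia, had 10 hyper and 10 hypo positions from 297 to 372 bp after its start in GSC 1. A further RefSeq promoter window of Rps19, at chr7:24884663-24884962, held 18 of these positions. Rps25 had 7 hypo positions of -30.4 to -29.1 points from -433 to -368 bp relative to its start in GSC 1 and none there in the others. Over the 5 libraries, 18 of its 27 listings lay inside another gene, with Trappc4 and Ccdc84 in its window. Rps3a1 had 5 hypo and 0 hyper positions in iPSC 2 and 1 to 4 listings in each other library. Rps14 had 13 hyper and 4 hypo positions in GSC 1 and 1 to 8 listings in each other library.

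The stalk genes showed both forms. Rplp2, an acidic stalk protein, had 3 hyper and 3 hypo positions from 71 to 83 bp after its start in GSC 1, iPSC 1, gPSC 1 and gPSC 2, with hyper medians of 27.8 points in GSC 1, 30.8 in iPSC 1, 29.1 in gPSC 1 and 39.4 in gPSC 2. In iPSC 2 it had 0 there, and instead 7 hypo positions from -340 to -198 bp relative to the start, of -76.7 to -66.7 points. Rplp0, the stalk's anchor, had 3 hyper and 4 hypo positions more than 6 kb after its start, in the flank, in gPSC 1 and in gPSC 2. There iPSC 1 had 3 hypo positions of -64.9 points each. Of the Rplp0 listings, 17 of 19 lay inside the neighbouring gene Gcn1, and 7 of 31 Rplp2 listings lay inside Pidd1.

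Mirrored neighbours were frequent among the group's pooled listings, but unevenly spread over its genes. Over the 5 libraries, Rps10 had 80 listings with an opposite one 1 bp away, Rps6 46 and Rpl7 44. Rpl23, Rpl38, Rps20 and Rpl37rt had 0. The group's listings lay more often in promoters than those around all genes, and the part of this in the shares below was not tested. Of the listed hyper positions around ribosomal protein genes, 33.2% had a hypo position 1 bp away in GSC 1, 68.5% in iPSC 1 and 39.2% in iPSC 2, and 42.7% in gPSC 1 and 55.3% in gPSC 2. Around all protein-coding genes the shares were 12.8% in GSC 1, 15.4% in iPSC 1 and 14.5% in iPSC 2, and 17.0% in gPSC 1 and 11.5% in gPSC 2. For hypo positions the shares of the group, 31.5% to 59.6%, lay on either side of those around all genes, 37.1% to 51.2%. Where 2 listed positions were 1 bp apart at a ribosomal protein gene, they had opposite signs in 99 of 102 cases in GSC 1, and in 62 of 62, 47 of 47, 58 of 58 and 79 of 79 in iPSC 1, iPSC 2, gPSC 1 and gPSC 2. Over the genome, neighbours 1 bp apart were opposite in 63.3% of cases in GSC 1, 83.7% in iPSC 1 and 87.0% in iPSC 2, and 86.7% in gPSC 1 and 79.3% in gPSC 2.

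Opposite neighbours at ribosomal protein genes were also close in size. Their differences summed to within 5 points of 0 for 93.9% of pairs in GSC 1, 95.2% in iPSC 1 and 87.2% in iPSC 2, and 79.3% in gPSC 1 and 93.7% in gPSC 2. Over the genome the shares were 88.1% in GSC 1, 86.1% in iPSC 1 and 81.6% in iPSC 2, and 83.4% in gPSC 1 and 86.2% in gPSC 2. Close sizes were thus not particular to the group, and in gPSC 1 its share was below that of the genome. In the promoter windows, 81 CpG listings on both strands were found over 8 genes and the 5 libraries, and 81 were opposite. Rps10 gave 8 of these listings in each of the 5 libraries, at the same sites and against the same reference, so they are not independent cases. Counting each gene in each library, the sense strand alone was hyper in 8 of 17 combinations, the template strand alone in 7, and each strand at some sites in 2. Rps10 in each of the 5 libraries is among the 8 with the sense strand alone. Without positions that had an opposite one 1 bp away, the group kept 169 hyper and 131 hypo positions in GSC 1, 23 and 48 in iPSC 1 and 62 and 89 in iPSC 2, and 71 and 78 in gPSC 1 and 55 and 46 in gPSC 2. Whether strand-specific measurement plays a part in these pairs was not tested, since the tables hold neither coverage nor levels per strand.

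Stretches of listed positions made the same contrast visible. A stretch was at least 5 listed positions of 1 library with gaps of at most 100 bp, a definition chosen after the values were seen, and it was called mirrored when at least 80% of its positions had an opposite one 1 bp away. The windows held 84 stretches in 39 genes: 36 mirrored, 10 hyper throughout, 16 hypo throughout and 22 mixed. A stretch in the shared window of neighbouring members was counted for both. Mirrored stretches made up 36.7% of the group's stretches in GSC 1 (genome-wide 16.1%), 70.0% in iPSC 1 (25.1%) and 26.7% in iPSC 2 (22.6%), and 38.5% in gPSC 1 (25.1%) and 56.2% in gPSC 2 (21.3%). Stretches that were hyper throughout made up 23.3% in GSC 1, 0 in iPSC 1 and iPSC 2, 15.4% in gPSC 1 and 6.25% in gPSC 2, against 46.2% to 63.4% genome-wide. Mirrored stretches had smaller differences, with a median of 38.5 points over stretch medians regardless of sign, against 65.0 points for stretches of a single direction.

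**Figure D5:**
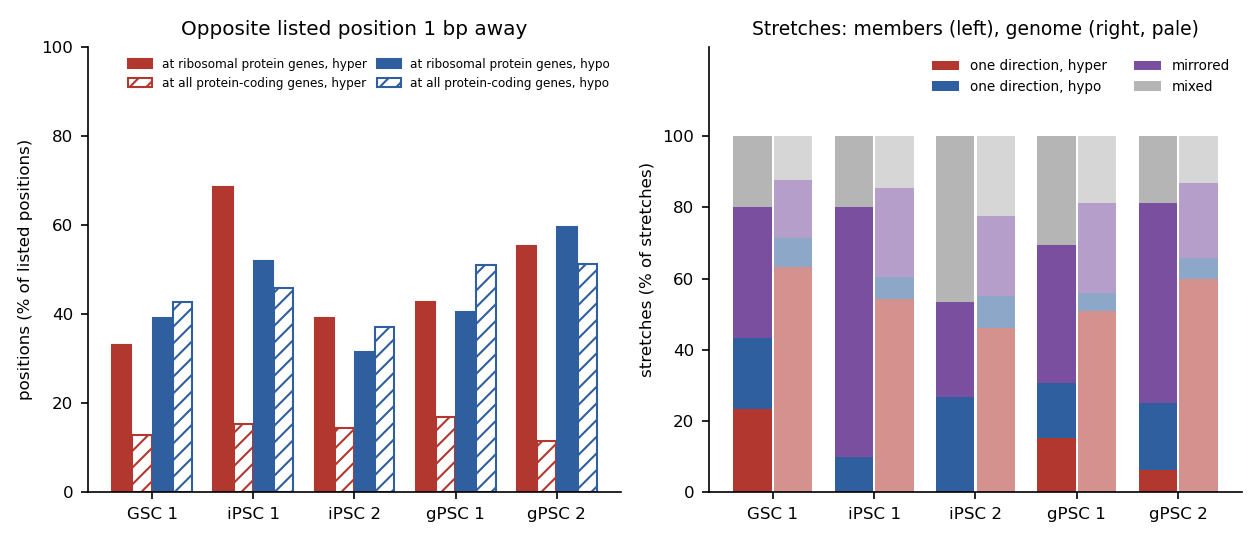
Left, share of listed positions with an opposite listed position 1 bp away, for hyper (red) and hypo (blue) positions around ribosomal protein genes (filled) and around all protein-coding genes (hatched), by library. Right, share of stretches of each class in each library, for ribosomal protein genes (left bar) and the genome (right, pale bar). Hyper positions of the group have an opposite neighbour in 33.2% to 68.5% of cases, against 11.5% to 17.0% around all genes.

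Other gene groups of the translation machinery were read by the same rule. Of 78 mitochondrial ribosomal protein genes, which encode the separate ribosome of mitochondria, 17 (21.8%) were called hyper and 7 (8.97%) hypo in GSC. In both iPSC lines 3 (3.85%) were called hyper and 1 (1.28%) hypo. In both gPSC lines 5 (6.41%) were called hyper and 1 (1.28%) hypo. The hypo call was Mrpl23 in each. Of 35 ribosome assembly genes, 9 (25.7%) were called hyper and 2 hypo (Gar1 and Nop10, of the H/ACA particle that guides pseudouridylation) in GSC. Efl1, which releases an assembly factor from the large subunit, and Polr1a, the largest subunit of RNA polymerase I, were hyper by call in each iPSC line, and the same genes with Polr1b and Polr1d were so in each gPSC line. Nmd3, the export adaptor of the large subunit, was called hypo in both iPSC and both gPSC lines. Of 31 translation factor genes, 8 (25.8%) were called hyper in GSC and 1 hypo (Eif3a), 1 hyper in both iPSC lines (the X-linked Eif2s3x) and 3 in both gPSC lines (Eif2s3x, Eif3l and Eif4g1). Hyper calls went to 5.71% of assembly and 3.23% of translation factor genes in both iPSC lines, and to 11.4% and 9.68% in both gPSC lines. The background shares for hyper calls were 31.8% in GSC, 13.3% in both iPSC lines and 18.1% in both gPSC lines. Those for hypo calls were 2.36%, 0.205% and 0.187%. Median windows were 11.7 kb for mitochondrial, 18.5 kb for assembly and 17.3 kb for translation factor genes, against 21.1 kb for all genes.

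The labels were checked at 1 gene of each state, by listed positions only. At Pou5f1, the pluripotency factor whose regulatory region is methylated in cells that do not use it, GSC 1 had 77 hyper and 1 hypo positions (mean 63.5 points), against 12 to 25 hyper and 3 to 9 hypo positions in the iPSC and gPSC lines. At Dazl, a germ cell gene, GSC 1 had 7 hyper and 15 hypo positions, against 8 to 15 hyper and 1 to 4 hypo positions in those lines. Fewer methylated cells and fewer methylated copies per cell cannot be told apart in these bulk samples.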

How the data were processed

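Reduced representation bisulfite sequencing was done in 6 lines, and 10 tables of called positions from 5 of them were used. Tools listed in the submitters' processing notes, without roles, are methylKit, GATK, Bismark and Bowtie2, with GRCm38 and mm10 as builds. Settings, coverage minimums and strand handling were not given in the sources used here. Each table gives, per position, a p-value and a q-value that the authors computed and deposited, and a methylation difference in percent points, also deposited by the authors. In all 10 tables the largest q was within 0.01 and no difference was smaller than 25 points in size. The strand column reads + throughout, and positions on X, Y and the mitochondrial genome carry no feature annotation. The depth is unknown, so no interval is given.

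Gene spans came from a GRCm38.p6 gene table, and strands of 64 of 85 members from RefSeq promoter sequences of the same build. A start was the upstream edge of the gene span on that strand, and distances are counted from it. At Rpl18, Rpl19, Rpl38 and Rps2 the RefSeq promoter windows lie inside the span instead. A strand inferred from the deposited annotation, as first planned, matched the RefSeq strands for 82.8% of 1775 genes and was not used. Counts and shares were computed with Python 3.11.15 and pandas 2.3.3, and the scripts were tested on simulated data. iPSC and gPSC lines were taken as separate units and compared by two-sided exact permutation. The sample titles number the lines and do not say whether they arose independently. The p-values cover the spread between lines, and all lines share the reference library.

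The genes named are those called in GSC, in both iPSC or in both gPSC lines, for each library and direction the 5 with the most listed positions (at least 2), and those listed within 500 bp of the start in all 5 libraries. Genes with no listing are named too. Of the genes the rule takes, 2 are not reported here by name. Rps7, Rps18, Rps19, Rpl14 and Rplp0 were added after their values were seen. The members and lists were chosen with earlier results of these data known. Alternatives tried were the difference and q thresholds, the flank, the number of positions for a call, leaving out opposite neighbours, other genes' spans, lines or doubtful members, and a replicate block.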

Additional observations from a re-analysis of the deposited data

Results flagged for a closer look

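At Rps18 the mean listed difference was -43.7 and -26.4 points in the iPSC lines and 3.33 and 45.4 points in the gPSC lines. These were opposite in sign between the kinds, by -59.4 points, and the difference was not tested. Between 1 and 7 positions stand behind each value. Of the 18 Rps18 listings over the 5 libraries, 14 lay inside another gene, with B3galt4 and Vps52 in its window.

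At Rpl12 the mean listed difference was 27.5 and 0.578 points in the iPSC lines and -81.0 and -29.1 points in the gPSC lines, opposite in sign by 69.1 points; the difference was not tested, and iPSC 1 and gPSC 1 had 1 listed position each.

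At Rps10 the mean listed difference was -0.135 and -0.0218 points in the iPSC lines and 0.158 and 0.272 points in the gPSC lines, opposite in sign by -0.293 points; the difference was not tested, and the means are near 0 because the 8 hyper and 8 hypo positions of each line cancel.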

How the results depend on the processing

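Depth is unknown, GSC and the reference are 1 library each, and listings of all libraries rest on that reference, so the counts limit more than the tests do. The hyper difference of -36 between iPSC and gPSC lines kept its sign under each alternative run, from -50.5 to -21.5 with 1 line left out. The hypo difference of -7.5 did not: it was 6.5 and 2.5 without positions that had an opposite one within 1 bp and 50 bp, 0.5 with a flank of 5000 bp, and -22.5 to 7.5 with 1 line left out, with 7.5 without iPSC 1 and 1.0 without gPSC 1. With the line number as a replicate block the differences stayed -36 and -7.5 (exact sign-flip permutation p = 0.5 and 1); line numbers share only a label. The cause of these changes was not tested.

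Counts of called genes moved with the rule. Hyper calls in GSC, 10, became 21 with a flank of 5000 bp, 26 with 1 position enough for a call and 5 with at least 5 positions. Hyper calls in both iPSC lines, 0, became 1 (5000 bp) and 2 (1 position), and 1 to 2 with 1 line left out; in both gPSC lines, 3, they became 1 (differences of at least 50 points), 5 (5000 bp) and 7 (1 position), and 3 to 4 with 1 line left out. Hypo calls in GSC, 3, became 5 (50 points), 7 without opposite neighbours at 1 bp or at 50 bp, 6 without flanks and 7 (1 position). Hypo calls in both iPSC lines, 1, became 4 (1 position) and 2 to 4 with 1 line left out, and in both gPSC lines, 1, 2 (1 position) and 2 to 5 with 1 line left out. For single named genes, the median in place of the mean moved 9 group values by more than the spread and left 59 within it, and leaving out opposite neighbours within 50 bp moved 7 and left 44. With the median 6 of these changed sign: Rpl13 in GSC (2.94 to -3.19 points), Rpl24 in iPSC (11.6 to -1.23), Rpl37rt in iPSC (-6.55 to 16.4), Rpl7 in GSC (-1.53 to 36.4), Rps25 in gPSC (-0.463 to 14.1) and Rps3a1 in GSC (0.0146 to -29.3). Without neighbours within 50 bp 2 did, Rpl24 in GSC (-32.9 to 100) and Rps6 in iPSC (-13.3 to 18.6); none of the 8 was of a called gene in that group.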
